A study of Homo sapiens with 18 samples.

Results

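Ribosome biogenesis genes encode the proteins that make, modify, fold and assemble ribosomal RNA (rRNA) in the nucleolus. Here 39 of them were followed in 3 leukemia cell lines after *SOX11* silencing. The members were taken from a list of symbols that was written with earlier results of these data known, and *ZNF593* was listed for its fall in the line 697. They were found among the 26941 genes of the count tables, each represented by its most counted transcript in the 18 samples. All 39 were found, and all 39 passed the filter on low counts in each line. *MYC* was followed beside them.

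A ribosome begins as a long precursor rRNA that RNA polymerase I transcribes from the rRNA genes. Small nucleolar ribonucleoproteins (snoRNPs) of the box C/D and box H/ACA classes modify it, the small-subunit processome folds and cuts it, and further factors mature the small 40S and large 60S subunits and carry them to the cytoplasm. The transcription factor MYC is a textbook activator of many of these genes, and it binds the sequence CACGTG, an E-box. Leukemic lymphoblasts divide fast and keep the nucleolus active.

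The cells were REH, 697 and RCH-ACV, established lines of B-cell precursor acute lymphoblastic leukemia. Each line received 300 nM of an siRNA against *SOX11*, a transcription factor of the SRY-box family, or of a non-specific control siRNA by nucleofection, and RNA was taken after 48 h from 3 biological replicates a group. The untransfected state was not analysed here, so each comparison is between 2 siRNAs. The labels call the first group a knockout, but the treatment is an siRNA knockdown.

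The E-box stood in the promoter window of many members. The window ran from 250 bases before to 50 bases after the start of each gene in the RefSeq promoter set (GRCh38.p14). Of the 39 members, 33 had an entry, and 16 of these 33 (48.5%) held CACGTG, the one motif searched, which reads the same on both strands. Among all 27305 genes with an entry the share was 8.78%, and among the 10857 that were tested in the 18 samples it was 12.5%. The 6 members with no entry were *NOP58*, *NOLC1*, *MPHOSPH10*, *RRP12*, *BOP1* and *RRS1*. Many of the members are well known as *MYC* targets, so this share is a description of the list. Of the members that passed the threshold in a line after *SOX11* siRNA, *WDR12* had an entry without CACGTG, and *NOLC1* and *MPHOSPH10* had no entry. *NOP16*, whose level differed widely between the lines, had an entry without it too. The E-boxes of *GAR1*, *GNL3* and *ZNF593*, which also passed, are printed with those of *RRP9* and *FBL*, whose level differed widely between the lines. They are given 5′ to 3′ on the strand of the gene, with the E-box in capitals.
GAR1: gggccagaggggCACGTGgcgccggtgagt
GNL3: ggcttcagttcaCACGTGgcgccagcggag
ZNF593: cggaagtgctcaCACGTGtgctccctgccc
RRP9: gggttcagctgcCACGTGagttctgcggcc
FBL: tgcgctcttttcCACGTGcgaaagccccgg
They lie at chr4:109815781-109815810 (plus strand), chr3:52686026-52686055 (plus), chr1:26169916-26169945 (plus), chr3:51941892-51941921 (minus) and chr19:39846356-39846385 (minus) of GRCh38.p14, in that order. Counting the gene start as base 1, the E-box began at base 32 in *GAR1*, 7 in *GNL3* and in *FBL* and 21 in *ZNF593*, while in *RRP9* it began 5 bases before the start.

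The siRNA lowered its target in each line. *SOX11* read 49.8, 55.9 and 63.7 CPM, the count of a gene scaled to the size of its library, with *SOX11* siRNA and 102, 101 and 97 with control siRNA in REH. The level fell to 56.3% of control in this line, to 53.0% in 697 and to 62.7% in RCH-ACV. The count per sample lay between 7039594 and 16592492. Of 10 B-precursor markers, all had counts in each sample of 697 and RCH-ACV and 9 in each of REH, where *VPREB1* read at most 0.10 CPM, while T cell and erythroid markers summed to at most 0.298 CPM. The summed CPM of 4 myeloid markers in REH was 13.8 to 17.1 with *SOX11* siRNA and 20.8 to 24.3 with control siRNA, and that of the B-precursor markers was 8053 to 8108 and 7349 to 7505. In the same order of groups the B-precursor sum was 4224 to 4392 and 4912 to 5134 in 697. In RCH-ACV it was 4345 to 5398 and 5314 to 5540, and *DNTT* alone ranged from 1655 to 2571 CPM there. Of the tested markers of all types, DESeq2 called 2 of 10 higher and 0 lower in RCH-ACV, where it called 577 of 12963 genes. In 697 it called 0 of 10 higher and 4 lower, where it called 85 of 12169 genes. In REH it called 3 of 11 higher and 1 lower, where it called 315 of 12787 genes. The part of these markers in the results was not tested. In bulk RNA, fewer cells of a type and less RNA per cell cannot be told apart.

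After *SOX11* silencing most members read slightly below control in REH, slightly above it in RCH-ACV, and on both sides of it in 697. A gene was called where edgeR's quasi-likelihood test within a line gave an adjusted p-value (Benjamini-Hochberg, over all tested genes) under 0.05. In REH 4 of the 39 members were called, all lower (*NOLC1*, *WDR12*, *GAR1* and *GNL3*), where 4.65% of the 12787 tested genes were called and 2.01% were called lower. In RCH-ACV 2 of 39 were called, *MPHOSPH10* and *ZNF593*, both lower, where 7.66% of 12963 genes were called and 3.97% called lower. In 697 *ZNF593* was the listed case, and none of the other 38 members was called, where 0.559% of 12169 genes were called. At an unadjusted p-value under 0.05 the other 38 members gave 2 in 697, beside 8.32% of all tested genes, and DESeq2 called 0 of the 38.

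The values below control in REH ran through the list and were small. There 35 of 39 members had a log2 fold change below 0, with a median of -0.09 and a range from -0.39 to 0.03, beside a median of -0.0023 and 51.0% below 0 over all tested genes. In 21 of 39 members all 3 *SOX11* siRNA samples lay below all 3 control samples, and in 0 of 39 above, where the shares of all tested genes were 10.6% and 10.9%. *SOX11* siRNA replicate 3 was the lowest REH sample: the median deviation of the members from their mean over the line was -0.09 in it on the log2 scale and -0.02 in each of the other *SOX11* siRNA samples. The same sample kept the most *SOX11* of its group, at 63.7 CPM against 49.8 and 55.9 CPM, and a link between these was not tested. Without this sample, 31 of 39 members were below 0 and the median was -0.05. Then 22 lay below control in every sample and 1 above, where 17.1% of all genes lay below. Without it 1 member was called, and without control replicate 3 none was called. Calls over all genes went from 594 to 523 and 299 with these removals.

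In RCH-ACV 31 of 39 members had a log2 fold change above 0, and the median was 0.06 beside 0.01 over all tested genes. All *SOX11* siRNA samples lay above all control samples in 7 members and below them in 3, where the shares of all tested genes were 12.2% and 13.9%. The 7 were *FBL*, *POLR1B*, *NCL*, *IMP4*, *TSR1*, *RRP12* and *PES1*. *SOX11* siRNA replicate 3 stood at the level of the control samples, with a median deviation of -0.02 against 0.04 and 0.03 in the other *SOX11* siRNA samples and -0.02 to -0.03 in the controls. This replicate kept the most *SOX11* of its group, at 86.7 CPM against 82.0 and 79.2 CPM, and a link between these was not tested. Without this sample 14 members lay above control in every sample, where 22.8% of all genes did. Then 5 were called higher (*GAR1*, *IMP3*, *NCL*, *NOB1* and *PPAN*), where 9.34% of genes were called higher. The same removal raised the calls over all genes from 993 to 2522.

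In 697, 17 of 39 members were below 0 and the median was 0.01, beside -0.0035 over all tested genes. *ZNF593* lay below control in every sample, and *PNO1* and *TSR1* above, where the shares of all tested genes were 7.81% and 6.15%. Outside *ZNF593* the members ranged from -0.13 for *NOLC1* to 0.14 for *NOP10*.

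**Figure D1:**
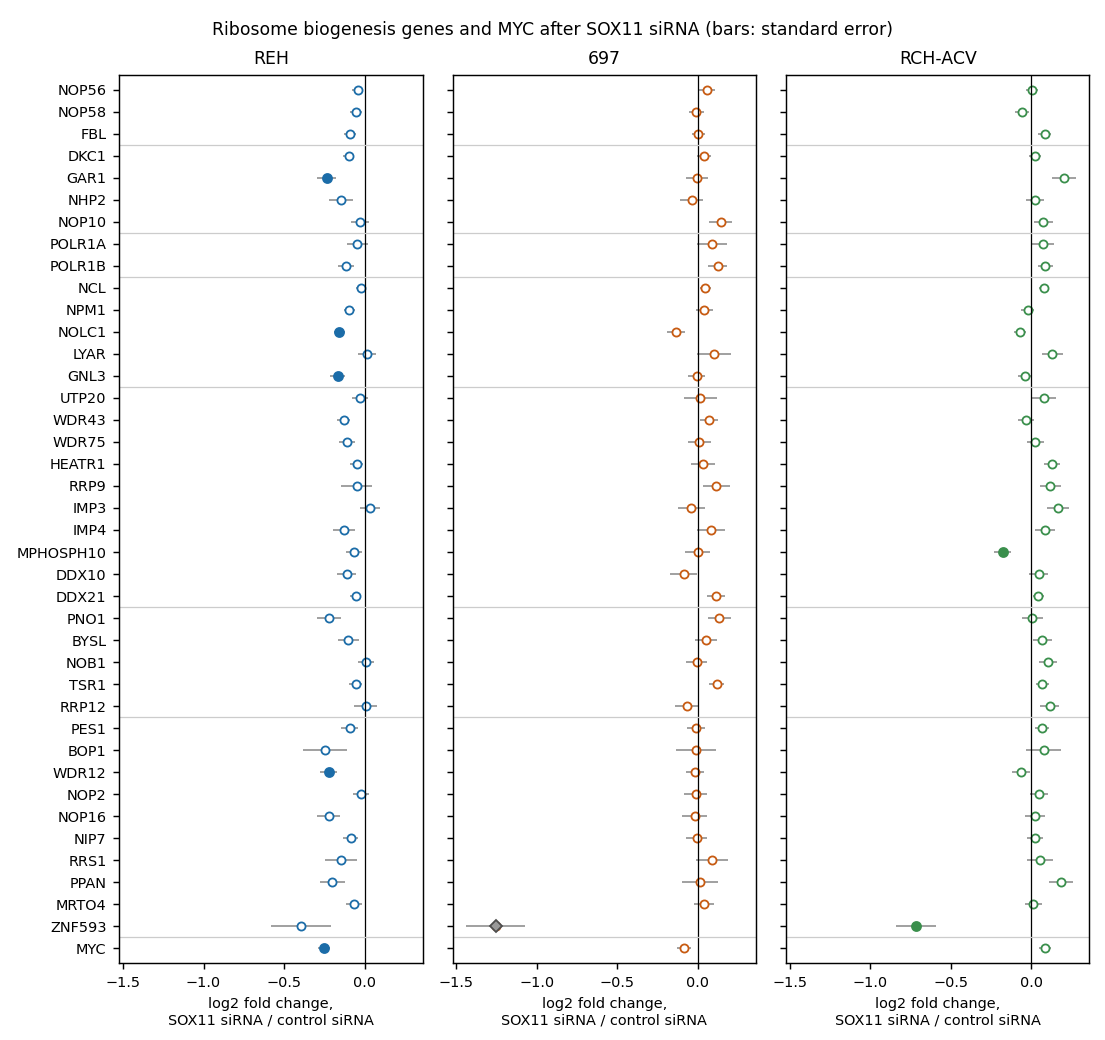
Log2 fold change of *SOX11* siRNA against control siRNA for the 39 members, grouped by role, and *MYC* (lowest row) in each line, with the standard error as a bar (3 samples a group). Filled circles had an adjusted p-value under 0.05, the grey diamond is *ZNF593* in 697, which was chosen for its value, and most points lie left of 0 in REH and right of it in RCH-ACV.

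**Figure D2:**
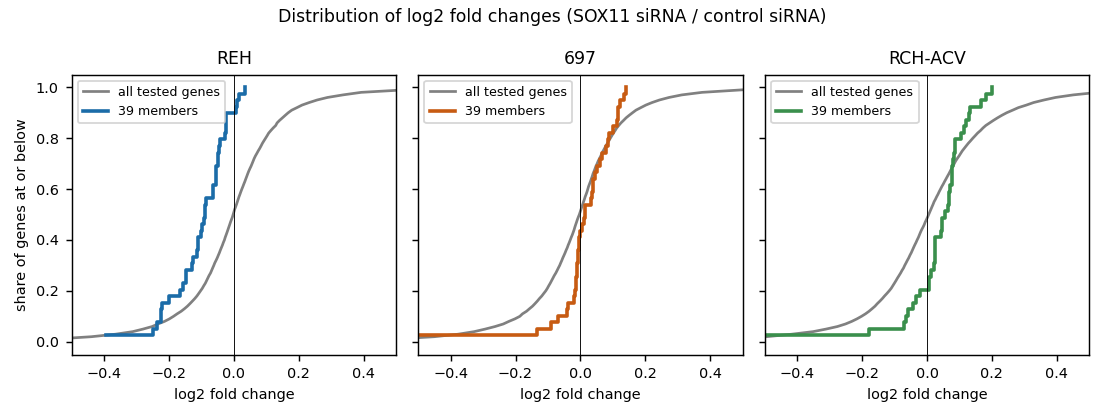
Cumulative share of genes at or below each log2 fold change, for the 39 members (coloured steps) and all tested genes (grey, drawn at each percentile), in each line. The median of the members is -0.09 for REH, 0.01 for 697 and 0.06 for RCH-ACV, and the axis ends at -0.5, short of *ZNF593* in 697 and RCH-ACV.

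The genes of the box C/D snoRNP, which adds methyl groups to rRNA riboses, stayed close to control. They are *FBL*, the methyltransferase fibrillarin, and the core protein genes *NOP56* and *NOP58*. None was called in any line, and their log2 fold changes ranged from -0.09 to -0.04 for REH, from -0.01 to 0.06 for 697 and from -0.06 to 0.08 for RCH-ACV. *FBL* was at 93.9% of control in REH and 106% in RCH-ACV.

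Of the box H/ACA snoRNP, which turns uridines of rRNA into pseudouridine, *GAR1* was called in REH. *GAR1* is one of the small core proteins around the pseudouridine synthase dyskerin (*DKC1*), and it lies on chr4:110736666-110745896 of hg19. In REH it read 49.2, 46.9 and 47.2 CPM with *SOX11* siRNA and 55.1, 57.8 and 55.8 CPM with control siRNA. In 697 it read, with the groups in the same order, 52.1, 53 and 51.4 CPM and 51.3, 51.1 and 54.8 CPM. In RCH-ACV it read 59, 58.7 and 49 CPM and 49.3, 48.3 and 48.1 CPM.
The *SOX11* siRNA samples all lay under the controls in REH, were mixed with them in 697, and lay clearly above them for replicates 1 and 2 of RCH-ACV but beside them for replicate 3. The log2 fold change was -0.24 ± 0.06 (SE) in REH, with an adjusted p-value of 0.018 by edgeR's quasi-likelihood test, -0.01 ± 0.07 in 697 and 0.20 ± 0.07 in RCH-ACV, with an adjusted p-value of 0.11 by the same test. In the REH test *GAR1* was no longer called without *SOX11* siRNA replicate 2 or 3 or control replicate 2 or 3, with DESeq2 or in 1 fit over all samples, and in RCH-ACV it was called (0.27) without *SOX11* siRNA replicate 3.
*DKC1*, the synthase itself, was at 93.3% of the REH control level, 103% of that of 697 and 102% of that of RCH-ACV, and *NHP2* was at 90.3%, 97.3% and 102%. Neither was called in any line, and neither was *NOP10*.

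Both large subunits of RNA polymerase I, *POLR1A* and *POLR1B*, passed no threshold. The REH value of *POLR1B* was -0.11 ± 0.05 on the log2 scale, the 697 value 0.12 ± 0.06 and the RCH-ACV value 0.09 ± 0.05. For *POLR1A* these were -0.05 ± 0.07, 0.09 ± 0.09 and 0.07 ± 0.07.

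Among the nucleolar scaffold and chaperone genes, *NOLC1* and *GNL3* were called in REH. *NOLC1* (chr10:103911933-103923628 of hg19) encodes Nopp140, a nucleolar phosphoprotein that binds snoRNPs. It read 441, 456 and 420.1 CPM with *SOX11* siRNA and 482, 486 and 499 CPM with control siRNA in REH. In 697 it read 483, 442 and 507 CPM and 543, 501 and 526 CPM. In RCH-ACV it read 512, 499 and 498 CPM and 539, 516 and 530.3 CPM.
The groups were apart in REH and in RCH-ACV, with *SOX11* siRNA lower, and overlapped in 697 through replicate 3. With REH first, 697 next and RCH-ACV last, the log2 fold changes were -0.16 ± 0.03, -0.13 ± 0.06 and -0.07 ± 0.04, with adjusted p-values of 0.0079, 0.55 and 0.26 by edgeR's quasi-likelihood test. *NOLC1* was no longer called in REH without control replicate 3, or in 1 fit over all 18 samples.

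*GNL3* encodes nucleostemin, a GTP-binding protein of the nucleolus. It read 104, 101 and 101 CPM with *SOX11* siRNA and 119, 113 and 111 CPM with control siRNA in REH. In 697 it read 291, 275 and 309 CPM and 299, 287 and 295 CPM. In RCH-ACV it read 276, 277 and 266 CPM and 285, 288 and 270.1 CPM.
The groups were apart only in REH among the 3 lines. The log2 fold change in REH was -0.17 ± 0.05, with an adjusted p-value of 0.039 by edgeR's quasi-likelihood test, and it was -0.01 ± 0.05 in 697 and -0.04 ± 0.04 in RCH-ACV. The REH call was lost without any single one of the 6 samples, with DESeq2 and in 1 fit over all samples, with adjusted p-values up to 0.16 over its alternatives. *GNL3* (chr3:52715172-52728513 of hg19) shares exonic bases with *GLT8D1* on the opposite strand.
*NPM1* (nucleophosmin) was at 93.7% of control (REH), 103% (697) and 98.4% (RCH-ACV). *NCL* (nucleolin) was at 98.4%, 103% and 106%, and the nucleolar protein gene *LYAR* at 101%, 107% and 110%. These genes were not called in any line.

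The small-subunit processome assembles on the precursor rRNA with the U3 snoRNP. In REH 9 of its 10 members were below 0 and none was called. The nearest to the threshold was *WDR43*, a subunit of the early-binding part of the processome, at -0.13 ± 0.04 (adjusted p-value 0.063, edgeR's quasi-likelihood test). *WDR75* was at -0.11 ± 0.05, *HEATR1* at -0.05 ± 0.04 and *UTP20* at -0.03 ± 0.05 in REH. *RRP9*, a U3 snoRNP protein, was at -0.05 ± 0.10, *IMP4* at -0.13 ± 0.07 and *IMP3* at 0.03 ± 0.06. The RNA helicase genes *DDX10* and *DDX21* were at -0.11 ± 0.06 and -0.06 ± 0.03. In 697 none of the 10 was called, and they ranged from -0.09 to 0.11.

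In RCH-ACV 8 of the 10 processome members were above 0, but the called one, *MPHOSPH10*, was lower. *MPHOSPH10*, on chr2:71357440-71377231 of hg19, encodes the protein that forms a complex with the products of *IMP3* and *IMP4* on U3. It read 86.8, 91.4 and 88.8 CPM with *SOX11* siRNA and 98.1, 101 and 103 CPM with control siRNA in RCH-ACV. In REH it read 87.2, 86.5 and 84.6 CPM and 92.1, 90.5 and 87 CPM. In 697 it read 69.2, 71.2 and 79.8 CPM and 73.4, 68.6 and 78.3 CPM.
The groups were apart in RCH-ACV and overlapped in the other lines. Its log2 fold change there was -0.18 ± 0.05, with an adjusted p-value of 0.043 by edgeR's quasi-likelihood test. The call was lost without any single sample other than *SOX11* siRNA replicate 3, and with DESeq2, library size as the only scaling, no filter on low counts or 1 fit over all samples. The gene has 7 named pseudogenes. Its partners read above control, *IMP3* at 0.17 ± 0.07 and *IMP4* at 0.09 ± 0.06, and neither was called (adjusted p-values of 0.16 and 0.43, edgeR's quasi-likelihood test).

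The genes of 40S maturation and export were not called in any line. *PNO1*, a late 40S assembly factor, was at 85.7% of control in REH, with 34, 37 and 33.1 CPM against 39, 38.5 and 44.5 CPM. It was at 110% in 697, with 53.1, 49.1 and 52.9 CPM against 46.5, 46.5 and 48.4 CPM. The groups did not overlap in either line, in opposite directions, and the adjusted p-values of edgeR's quasi-likelihood test were 0.092 and 0.69.
In RCH-ACV it was at 100% of control. *TSR1*, a GTPase-like factor of the pre-40S particle, lay at 96.3% of the control level (REH), 108% (697) and 105% (RCH-ACV). *BYSL* was at 93.3%, 103% and 105%, *NOB1*, the nuclease that makes the end of the small-subunit rRNA, at 101%, 99.4% and 107%, and the export factor gene *RRP12* at 100%, 95.3% and 108%.

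The 60S maturation genes had a median of -0.17 in REH, the lowest of all roles, and all 10 were below 0. The called one was *WDR12*, a WD-repeat subunit of the PeBoW complex, whose other subunits are *PES1* and *BOP1*. *WDR12* read 64.8, 65.4 and 61.7 CPM with *SOX11* siRNA and 76.8, 72.6 and 74.5 CPM with control siRNA in REH. In 697 it read 123, 121 and 131 CPM and 129.8, 127 and 123 CPM. In RCH-ACV it read 104, 102 and 99.3 CPM and 101, 115 and 103 CPM.
The groups were apart in REH and overlapped in the other lines. The log2 fold change in REH was -0.22 ± 0.05, with an adjusted p-value of 0.015 by edgeR's quasi-likelihood test, and it was -0.02 ± 0.06 in 697 and -0.07 ± 0.06 in RCH-ACV. The call was lost without *SOX11* siRNA replicate 3 or control replicate 1 or 3, and with DESeq2. *WDR12* (chr2:203738984-203879521 of hg19) shares exonic bases with *CARF* and *NBEAL1* on the opposite strand.
The other PeBoW genes were not called in REH, *PES1* at -0.09 ± 0.05 and *BOP1* at -0.25 ± 0.14. *BOP1* had the fewest reads after *ZNF593*, with 49 to 113 counts in an REH sample.

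Further genes of pre-60S factors near these values in REH were *NOP16* at -0.22 ± 0.07 and *PPAN* at -0.20 ± 0.08, with adjusted p-values of 0.081 and 0.16 by edgeR's quasi-likelihood test. *RRS1* was at -0.15 ± 0.10, *NIP7* at -0.09 ± 0.05, *MRTO4* at -0.06 ± 0.05 and *NOP2*, an rRNA methyltransferase gene, at -0.02 ± 0.05. In 697 the 60S members other than *ZNF593* ranged from -0.02 to 0.09. In RCH-ACV *PPAN* was the highest of the 60S members, with 67, 64.8 and 54.8 CPM against 54.6, 52 and 58 CPM. As for *GAR1*, replicate 3 lay within the controls and the other samples above them, at a log2 fold change of 0.18 ± 0.07 with an adjusted p-value of 0.16 by edgeR's quasi-likelihood test.

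*ZNF593* encodes a zinc finger protein that travels with the pre-60S particle, and it had the lowest log2 fold change of the members in each line. In 697, for which it was listed, it read 8.18, 6.62 and 6.4 CPM with *SOX11* siRNA and 15.3, 13.9 and 21.1 CPM with control siRNA. In RCH-ACV it read 9.64, 9.2 and 8.72 CPM and 14.4, 17.7 and 13.4 CPM. In REH it read 5.11, 4.28 and 3.37 CPM and 6.31, 5.51 and 4.72 CPM.
The groups were far apart in 697, apart in RCH-ACV, and overlapped in REH, where the level in the controls was lowest. The level in 697 was 41.9% of control, given as a description. The log2 fold change in RCH-ACV was -0.72 ± 0.12, with an adjusted p-value of 0.0018 by edgeR's quasi-likelihood test, and in REH it was -0.39 ± 0.19, with an adjusted p-value of 0.28. The RCH-ACV call was kept under all alternatives tried, with adjusted p-values from 0.00028 to 0.019. REH samples held 31 to 68 counts of *ZNF593*, the fewest of any member in that line.

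The annotated 3′ UTRs of the members were also searched for a short word. A word of 7 letters, GTGACGC, that had been picked in an earlier look at these samples because genes carrying it were among those that fell most, was found in the annotated 3′ UTR of 1 of 39 members, *ZNF593*, and of 271 of 19279 genes (1.41%). The scan read the sense strand of hg19. The word is shown in capitals.
ZNF593: tgcccatggacaGTGACGCaaggactaggc
It lies at chr1:26497237-26497266 of hg19 (plus strand), with the word starting at base 45 of a 160-base 3′ UTR. The gene spans chr1:26496399-26497364 and shares exonic bases with *ZNF593OS* on the opposite strand. The way the word was chosen makes this match a description. *ZNF593* was at 41.9% of control in 697, 60.8% in RCH-ACV and 76.1% in REH, where *SOX11* was at 53.0%, 62.7% and 56.3%. Whether the fall of *ZNF593* came through the loss of *SOX11* was not tested.

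**Figure D3:**
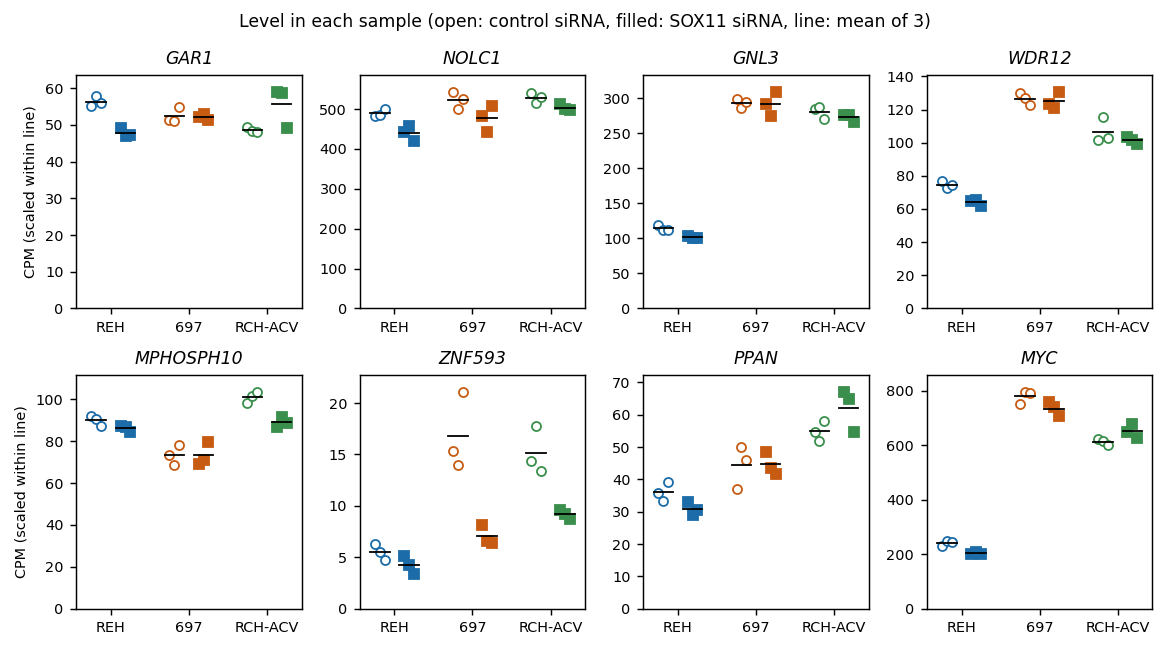
CPM in each sample for the called members, *PPAN* and *MYC*, with 3 control siRNA samples (open circles) and 3 *SOX11* siRNA samples (filled squares) a line, scaled within the line, and the mean as a black line. *GAR1*, *NOLC1*, *GNL3*, *WDR12* and *MYC* are lower in each *SOX11* siRNA sample of REH, and *ZNF593* in each of 697 and RCH-ACV.

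The log2 fold changes of *MYC* stood in the same order of lines as the medians of the members, lowest in REH and highest in RCH-ACV. In REH it read 201, 208 and 200.4 CPM with *SOX11* siRNA and 231, 249.9 and 244 CPM with control siRNA. In 697 it read 758, 739 and 708 CPM and 752, 795 and 791 CPM. In RCH-ACV it read 650.0, 676 and 625 CPM and 624, 614 and 602 CPM.
The groups were apart in REH, with *SOX11* siRNA lower, overlapped in 697, and were apart in RCH-ACV, with *SOX11* siRNA higher. The log2 fold change of *MYC* was -0.25 ± 0.04 in REH (adjusted p-value 0.00023, edgeR's quasi-likelihood test), beside -0.09 for the median member. In 697 it was -0.08 ± 0.04 (adjusted p-value 0.67, same test), beside 0.01. In RCH-ACV it was 0.09 ± 0.04 (adjusted p-value 0.19, same test), beside 0.06, and *MYC* was called there (0.11) without *SOX11* siRNA replicate 3. With 3 lines no correlation across them was computed. The REH call was kept under all alternatives tried, with adjusted p-values from 2.5e-05 to 0.0043.

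Whether the effect differed between the lines was tested in 1 fit over the 18 samples. By edgeR's quasi-likelihood test of the interaction, *MYC* differed (adjusted p-value 0.0054) and so did *GAR1* (adjusted p-value 0.041), the one called of 39 members, where 0.727% of 14026 genes were called. The *GAR1* call was lost with the replicate number as a block, where calls over all genes went from 102 to 45. Samples were not left out in turn for the interaction. At an unadjusted p-value under 0.05, 10 of the 38 members other than *ZNF593* passed, beside 10.2% of all genes. Among them was *PNO1*, with an adjusted p-value of 0.19 by edgeR's quasi-likelihood test. *ZNF593* passed too, but it was listed for its fall in 697, so its difference between the lines is a description. For an effect common to the lines *NOLC1* was called, at -0.12 ± 0.03 with an adjusted p-value of 0.0055 in edgeR's quasi-likelihood test, and *ZNF593* was the other called member, in a fit that includes the 697 samples for which it was listed. Of all genes 9.02% were called for the common effect. *NOLC1* was below control in value in each line.

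The level of the members in the control siRNA samples was lower in REH than in the other lines for most of them. For these comparisons CPM values were scaled over all 18 samples. In REH 32 of 39 members were lower than in 697 and 3 higher by edgeR's quasi-likelihood test, where 36.1% of all genes were lower and 39.6% higher. Against RCH-ACV 33 were lower and 2 higher, where 36.8% and 36.9% of all genes were. The median log2 difference was -0.36 against 697 and -0.33 against RCH-ACV, beside 0.03 and 0.00 over all genes. Between 697 and RCH-ACV 8 members were lower in 697 and 10 higher, where 32.9% and 30.7% of all genes were, with a median of 0.05. REH was the lowest of the lines for 32 members, RCH-ACV for 4 and 697 for 3. With library size as the only scaling the all-gene median of REH against 697 moved to 0.15, and 27 members were called lower there. Each line has 1 table, so a line and anything its libraries share cannot be told apart.

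*MYC* itself was lower in REH control samples, with 223, 241 and 234 CPM against 796, 820.1 and 817 CPM in 697 and 622, 612 and 601 CPM in RCH-ACV. Its log2 differences were -1.80 ± 0.04 and -1.39 ± 0.04. The groups did not overlap, and 697 was above RCH-ACV by 0.41 ± 0.04.

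By role, the widest gaps were in 60S maturation, where 9 of 10 members were lower in REH than in either line, with medians of -0.65 and -0.63. *RRS1*, a factor that brings the 5S ribonucleoprotein into the pre-60S particle, read 14.4, 15.1 and 13.9 CPM in REH, 63, 66.2 and 79.1 CPM in 697 and 61.9, 59.8 and 73.1 CPM in RCH-ACV. REH samples were all far below the others, and 697 and RCH-ACV overlapped. The log2 differences were -2.26 ± 0.11 and -2.16 ± 0.11.
*ZNF593* read 6.08, 5.32 and 4.53 CPM in REH, 16.2, 14.4 and 21.8 CPM in 697 and 14.4, 17.7 and 13.4 CPM in RCH-ACV, with log2 differences of -1.70 ± 0.16 and -1.48 ± 0.16. REH lay below both, and the other lines overlapped. *NOP16* had log2 differences of -0.94 ± 0.07 and -0.83 ± 0.07. The PeBoW genes *WDR12* (-0.88 and -0.56), *BOP1* (-0.89 and -0.86) and *PES1* (-0.43 and -0.54) were lower too. The exception was *NIP7*, which was higher in REH, by 0.31 ± 0.05 and 0.38 ± 0.05.

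In the other roles the gaps were narrower apart from single genes. *GNL3* read 115, 109 and 107 CPM in REH, 316, 296 and 305 CPM in 697 and 285, 287 and 269.6 CPM in RCH-ACV, with log2 differences of -1.47 ± 0.05 and -1.35 ± 0.05. *RRP9* read 19.1, 19.9 and 23.3 CPM, 50.4, 54.4 and 57.8 CPM and 48.8, 49.3 and 48.3 CPM, with differences of -1.40 ± 0.08 and -1.25 ± 0.08. In both genes REH was far below, and the other lines lay close together.
*FBL* had log2 differences of -0.84 ± 0.04 and -0.63 ± 0.04, and its partners *NOP56* and *NOP58* of -0.20 and -0.25 against 697. Among box H/ACA genes *DKC1* was lower against both lines (-0.32 and -0.17), *NOP10* passed the test against neither, and *GAR1* was 0.16 ± 0.07 above RCH-ACV. The helicase gene *DDX21* differed by -0.45 and -0.75, *NPM1* by -0.64 and -0.45 and *NCL* by -0.46 and -0.44, all lower in REH.
All 5 genes of 40S maturation were lower in REH than in 697 and 4 of 5 than in RCH-ACV. *LYAR* and *MPHOSPH10* had no common direction, higher in REH than in 697 (0.44 ± 0.08 and 0.18 ± 0.06) and lower than in RCH-ACV (-0.28 ± 0.08 and -0.22 ± 0.06).

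**Figure D4:**
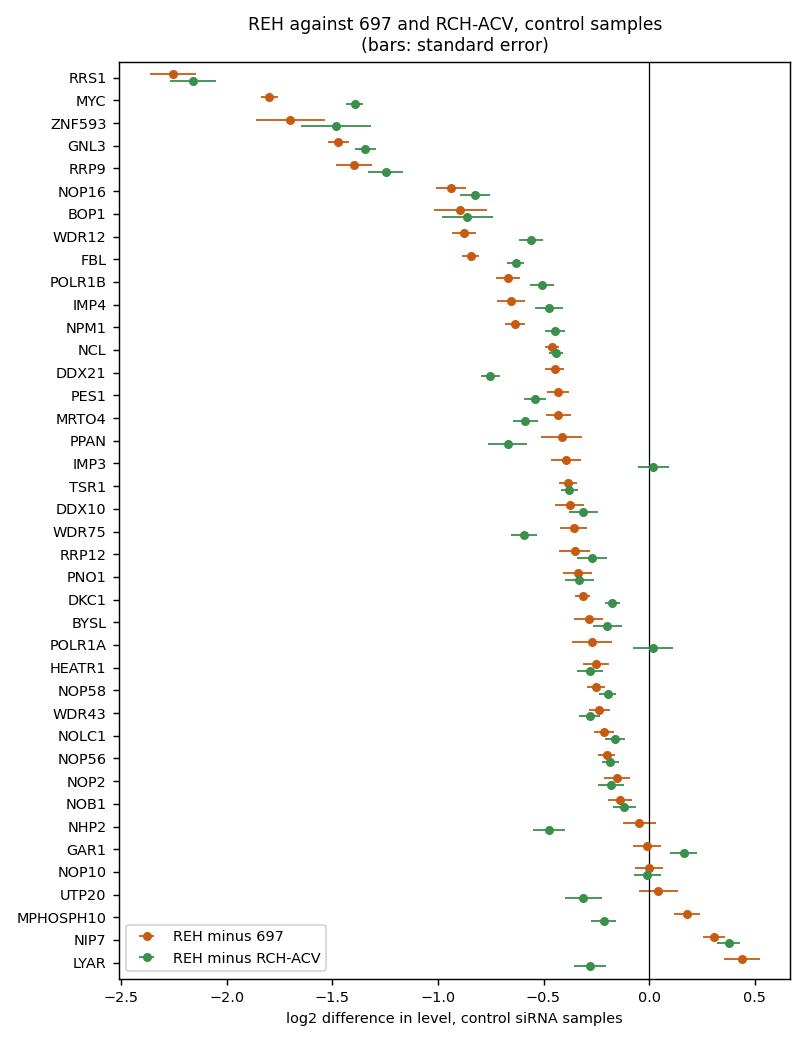
Log2 difference in level between the control siRNA samples of REH and those of 697 (orange) or RCH-ACV (green), for the 39 members and *MYC* in order of the difference from 697, with the standard error as a bar (3 samples a group). Most points lie left of 0, *RRS1* at -2.26 and *MYC* at -1.80 are the farthest, and *NIP7* is right of 0 against both lines.

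Members with and without the E-box had medians close to each other. The median log2 difference between REH and 697 control samples was -0.38 for the 16 members with CACGTG in the window and -0.38 for the 17 without, and against RCH-ACV it was -0.40 and -0.38. The median log2 fold change after *SOX11* siRNA in REH was -0.09 in both groups, with 15 of 16 and 15 of 17 below 0. In RCH-ACV the medians were 0.07 and 0.04. These are descriptions of a window of 300 bases.

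Few of the other genes of the pathway were called. Of all tested genes 4.65% were called in REH, 0.559% in 697 and 7.66% in RCH-ACV. Of 127 further ribosome biogenesis genes, 1 was called lower and 0 higher in REH, with a median log2 fold change of -0.04 and 89 of 127 below 0. The called gene was *RSL1D1*, at -0.13 ± 0.03. In 697 edgeR and DESeq2 called 0 of 127, and 7 passed an unadjusted p-value under 0.05 in edgeR, beside 8.32% of all tested genes. The median there was 0.03, with 87 of 127 above 0. In RCH-ACV 1 was called higher, *RUVBL2* at 0.19 ± 0.05, a helicase of snoRNP assembly, and 1 lower, *MPHOSPH6* at -0.24 ± 0.06, an exosome cofactor. The median in RCH-ACV was -0.0013, with 63 of 127 above 0, where 31 of the 39 members were above 0. DESeq2 called 0 of 127 in REH and in RCH-ACV too, where it called 315 of 12787 and 577 of 12963 genes.
The E-box share of this longer list was 24.8% of the 109 with a promoter entry, and that of the *MYC* targets described next was 41.2% of 34.

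In REH, where 2.01% of all genes were called lower, 5 of 38 tested *MYC* targets that act outside the nucleolus were called lower and 0 higher. The farthest were *CCND2*, a D-type cyclin (-1.68 ± 0.37, at 0.401 to 2.47 CPM over the samples), *ODC1*, the first enzyme of polyamine synthesis (-0.23 ± 0.04), and *NME1*, a nucleoside diphosphate kinase (-0.19 ± 0.04). DESeq2 called 2 of the targets lower there, and 122 of 12787 genes. In 697 edgeR and DESeq2 called 0 of 38, and 2 passed an unadjusted p-value under 0.05 in edgeR, beside 8.32% of all tested genes. In RCH-ACV, where 7.66% of all tested genes were called, 5 were called higher and 1 lower. DESeq2 called 577 of 12963 genes there, and of the 38 targets 2 higher and 1 lower.
The glycolytic genes *ENO1* (0.25 ± 0.04) and *LDHA* (0.19 ± 0.04) and the spermidine synthase gene *SRM* (0.19 ± 0.05) were the highest of these, and the chaperonin subunit gene *CCT2* (-0.15 ± 0.04) was the lower one. Members and these targets were listed together with earlier results of the data known, so the counts describe the lists.

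Some counts can hold reads of another gene. *NOP56* and *DKC1* were represented by a non-coding RefSeq transcript of their locus. Of the 39 members, 14 share exonic bases with a gene on the opposite strand and 11 have named pseudogenes, 49 for *NPM1*. The library kit keeps strand, but the strand setting of the counting is not given in the sources used here.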

How the data were processed

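RNA from 18 samples was sequenced with a stranded mRNA kit. Per the labels, the authors aligned reads to hg19 with STAR 2.5.3a and counted them with HOMER on RefSeq transcripts. The deposited values are raw counts without normalization, in 1 table a line, with 0 columns of other samples. RefSeq identifiers were matched to symbols for 98.0% of 50678 transcripts (99.0% of counts), and each gene was represented by its most counted transcript in the 18 samples. Totals lay between 7039594 and 16592492 counts, and a floor of 3 counts was 0.181 to 0.426 CPM, for counting error only.

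Each line was fitted with edgeR 4.0.16 (TMM, filterByExpr, quasi-likelihood F-test, two-sided, adjusted p-value under 0.05 over all tested genes). The common effect, the interaction and the contrasts between control groups each came from a separate fit over the 18 samples. CPM used TMM-scaled library sizes. The fits were tested on simulated data. Alternatives were DESeq2 1.42.0, scaling by RLE or by library size, leaving out the filter on low counts or asking for 3 samples above 1 CPM, an adjusted p-value under 0.01, the replicate number as a block, 1 fit over all samples, the transcript highest within a line, the 9 control samples alone, and leaving out each sample in turn, with edgeR's legacy method and the leave-one-out overlap counts added after seeing the data. Values in every sample are given for members called in any line, *ZNF593* and *MYC*, and the other members by role, and *PNO1*, *PPAN*, *RRS1*, *RRP9* and *GNL3* control values were chosen after their values were seen. The members and lists were chosen with earlier results of these data known. Of 128 further ribosome biogenesis symbols, 127 were found.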

Additional observations from a re-analysis of the deposited data

Results flagged for a closer look

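The siRNA effect differed between the lines for *GAR1* (adjusted p-value 0.041 for the interaction, edgeR's quasi-likelihood test) and for *MYC* (adjusted p-value 0.0054, same test). *MYC* was lower in each *SOX11* siRNA sample of REH (-0.25, log2) and higher in each of RCH-ACV (0.085).

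Groups apart and lower were common among the members in REH (21 of 39, beside 10.6% of all tested genes). Groups apart and higher made up 12.2% of all tested genes for RCH-ACV and 6.15% for 697. The share of all tested genes with both was not counted, so the next values are a description. In 5 more genes every *SOX11* siRNA sample lay below control in REH and above it in another line, without the interaction passing the threshold. These were *FBL* (-0.090 in REH and 0.083 in RCH-ACV), *POLR1B* (-0.11 and 0.087) and *IMP4* (-0.13 and 0.085). *PNO1* was at -0.22 in REH and 0.13 in 697. *TSR1* was at -0.054 in REH, 0.12 in 697 and 0.069 in RCH-ACV.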

How the results depend on the processing

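At an adjusted p-value under 0.01, 1 member was called lower in REH, 0 in 697, 1 in RCH-ACV and 0 for the interaction, and 1 was higher in REH than in RCH-ACV controls and 5 in 697 than in RCH-ACV. DESeq2 gave 1 lower in REH, 1 in RCH-ACV and 1 higher in REH than in RCH-ACV. With 1 fit over all samples REH and RCH-ACV had 1 lower each. Library size alone gave 1 lower in RCH-ACV and 6 higher in 697 than in RCH-ACV, and no filter gave 1 lower in RCH-ACV and 1 higher in REH than in RCH-ACV. Calls over all genes in REH went from 594 to 315 with DESeq2 and 241 with 1 fit. In RCH-ACV they went from 993 to 577 with DESeq2, 866 with 1 fit, 996 with library size alone and 960 with no filter. Replicate numbers did not pair the samples (correlations of deviations from -0.25 to 0.27). With the replicate block RCH-ACV had 1 lower and the interaction 0, where 689 and 45 of all genes were called. In it *GAR1* was no longer called for the interaction, *GNL3* in REH or *MPHOSPH10* in RCH-ACV (adjusted p-values 0.17, 0.069 and 0.075, edgeR's quasi-likelihood test).

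Leaving out each sample, members called lower numbered 0 to 3 in REH, 0 to 1 in 697 (*ZNF593*, which was listed for this fall, so its call there is a description) and 1 to 2 in RCH-ACV, and higher 0 to 5 in RCH-ACV. Over all genes, calls lower ran from 138 to 223 in REH, 20 to 54 in 697 and 208 to 1299 in RCH-ACV. They were 257, 58 and 514 with all samples. Calls higher over all genes in RCH-ACV ran from 178 to 1223, and were 479 with all samples. Members higher in REH than in RCH-ACV controls were 1 to 2. Members lower in REH controls stayed at 30 to 32 against 697 and 32 to 34 against RCH-ACV. Medians lay from -0.11 to -0.052 in REH. Groups apart and higher numbered 0 to 1 in REH, 3 to 8 in 697 and 8 to 14 in RCH-ACV, and apart and lower 1 to 4 in 697. With the same removals the shares of all genes moved too, for higher from 14.7% to 16.7%, 9.61% to 12.6% and 15.3% to 22.8% in these lines, and for lower in 697 from 11.3% to 15.7%. *MYC* in RCH-ACV lay from 0.055 to 0.11.

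Near 0 in 697, values changed sign. *GAR1* was 0.00074 with RLE, 0.0059 with library size, 0.00079 with DESeq2 and 0.0078 with no filter, *GNL3* 0.0031 with library size and 0.0055 with no filter, and *MPHOSPH10* 0.0065, 0.011, 0.0063, 0.014 and 0.0021 with these 4 and 1 fit. Without 1 sample *GAR1* ranged from -0.023 to 0.027, *GNL3* from -0.053 to 0.044, *MPHOSPH10* from -0.066 to 0.047 and *WDR12* from -0.051 to 0.018. The cause was not tested. *ZNF593* and *BOP1* had the fewest counts in REH.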
